A study of Rattus norvegicus with 61 samples.

Results

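The set described here holds 150 rat transcripts found at much the same level in 4 lymphocyte types of the spleen, namely B cells, natural killer (NK) cells, CD4 T cells and CD8 T cells. They were chosen from the 31196 transcripts of the deposited table by their levels alone. Each value was divided by the total of its library and multiplied by 1000000 (CPM, counts scaled to a common library total), and the replicates of a group were averaged. A transcript had to have a mean under 1 CPM over the 15 livers, which left 17714, and a mean of at least 2 CPM in each of the 4 lymphocyte types, which left 1602. The highest of the 4 means could be at most 1.5 times the lowest, each with 1 CPM added (the evenness ratio), which left 645. The lowest of the 4 means also had to exceed the higher of the monocyte and neutrophil means by more than 1.5 times, again with 1 CPM added (the ratio r), which left 211. The 150 with the highest r form the set, and the other 61 were not taken.

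The series was made to build and test a deconvolution of rat immune cells, a calculation that estimates the make-up of a mixed tissue from the profiles of sorted cells. It holds 61 RNA sequencing libraries of male wild-type Sprague-Dawley rats, which the methods give as 6 weeks old, with 36 libraries of 6 sorted cell types, 5 of whole spleen cells, 5 of whole blood cells (WBC) and 15 of liver. All spleen and blood libraries came from untreated rats. The livers came 24 h after gavage, with 5 in each of 3 groups: 0.5% methylcellulose (Ctrl), acetaminophen at 3 g/kg (APAP), an analgesic that injures hepatocytes at high dose, and 4,4′-methylene dianiline at 300 mg/kg (MDA), which is known to injure the bile ducts. All 3 liver groups were fasted before dosing and perfused before the RNA was taken. The lymphocytes were sorted from the spleen as live CD45+/CD11b- cells and divided by CD3, CD4, CD8a, CD161 and CD45RA. Monocytes and neutrophils were sorted from the blood as CD11b+ cells that lacked CD3, CD45RA and CD161 and were divided by side scatter, so that source tissue and lineage changed together between lymphocytes and myeloid cells and cannot be told apart. The labels number the replicates but do not say which came from the same animal, and p-values measure the spread between these samples.

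B cells make antibodies, CD4 T cells help other immune cells, CD8 T cells kill infected cells after antigen recognition and NK cells kill without rearranged antigen receptors. All are lymphocytes and share a descent that separates them from monocytes and neutrophils, the myeloid cells that engulf microbes and debris. Transcripts shared by lymphocytes differ from the type-specific transcripts on which deconvolution rests, because they carry information on lymphocytes as a class and little on which type is present.

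Identifiers in the files are Ensembl transcripts without gene names. The only gene table used here, of 47357 genes of RefSeq's GRCr8 annotation, holds 0 of them, so names were not assigned here. The known roles of the members, their sequences and the markers of cell types are therefore not given, and a tissue or sort label could not be checked against named markers. Identifiers are printed only for a few transcripts chosen by a fixed rule. Low values of a transcript recurred at multiples of a step that differed between transcripts (5th to 95th percentile of the step 0.179 to 3.36 over 2811 transcripts). Of these low values 46.1% lay within 0.15 of a whole multiple of the step, against 30% if spread evenly, so the pattern held for part of them. CPM here is taken as a level per length, and an estimated count is not a number of reads. The main tests still fitted the values as counts with edgeR, and limma on log-scaled CPM was run as an alternative. The choice of test moved the members' median fold changes, which are given for both.

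Library totals ran from 3429971 to 14146402, with a median of 11019514. Of the 36 sorted libraries, 32 correlated best with the mean of their own type over the expressed transcripts. The libraries labelled NK, CD4T and CD8T replicate 5 correlated best with the B cell mean (r = 0.983, 0.985 and 0.986, against 0.971, 0.975 and 0.969 with their own types), and CD8T replicate 2 with the CD4 T cell mean (0.978 against 0.975). Since the 3 libraries nearest to B cells enter the means that chose the set, values are given with and without them. Without them the rule found 175 transcripts before the limit of 150, and 122 of the 150 members were chosen again.

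The levels in the sorted cells chose the set and are therefore given as a description. Across the 150 members the median of the group means was 5.08 CPM in B cells, 5.58 in NK cells, 4.90 in CD4 T and 5.32 in CD8 T cells. The same median was 0.973 CPM in monocytes and 0.961 in neutrophils. Most members were therefore transcripts of low to moderate abundance: 29 reached a mean of 10 CPM in all 4 lymphocyte types, and 7 reached 50. The 5 most abundant members held 32.6% of the summed level of the set.

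**Figure D1:**
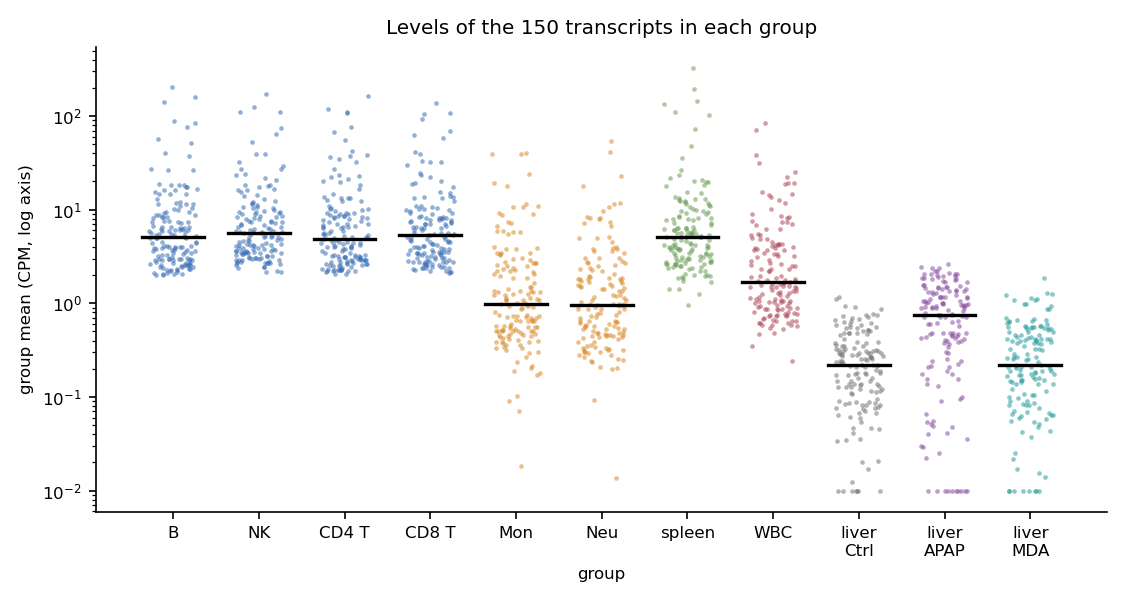
Group means (CPM, log axis) of the 150 members in the 11 groups, with 1 point per transcript and a black line at the median; means under 0.01 CPM are drawn at 0.01. The medians in the 4 lymphocyte types lie between 4.90 and 5.58 CPM, those in monocytes and neutrophils just under 1 CPM, and the spleen (5.06) lies with the lymphocytes.

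Within the limits of the rule the members still had an order over the lymphocytes. The evenness ratio ran from 1.03 to 1.5 with a median of 1.29, and r from 1.81 to 9.25 with a median of 2.34. The highest of the 4 means was in NK cells for 70 members, in B cells for 28, in CD4 T for 26 and in CD8 T cells for 26. The lowest was in B cells for 70, in CD4 T cells for 39, in CD8 T cells for 22 and in NK cells for 19. Monocytes exceeded neutrophils for 82 members and neutrophils exceeded monocytes for 68.

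The replicates of the types mostly overlapped, which the limit on the evenness ratio favours. For 141 members the ranges of the 6 libraries overlapped in every pair of lymphocyte types. The median coefficient of variation over replicates was 21.8% in B cells, 23.5% in NK cells, 23.7% in CD4 T and 23.0% in CD8 T cells, and 34.1% in monocytes and 40.3% in neutrophils, where levels were lower. For 121 members, which were chosen for their ratio to the myeloid cells, each of the 24 lymphocyte libraries lay above each of the 12 myeloid libraries. The same held for 330 of the 1602 transcripts that passed the limits on liver and lymphocyte level, which include the members.

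Without the 3 libraries nearest to B cells, the evenness ratio exceeded 1.5 in 24 of the 150 members and reached 2.0, while r stayed above 1.5 in all 150. Separation from the myeloid libraries held for 121 members, a count that leaving libraries out cannot lower. Ranges overlapped in every lymphocyte pair for 128. The order of types was much the same, with the highest mean in NK cells for 65 members and the lowest in B cells for 59. The limit on evenness was thus met by 24 members only with libraries whose profile lay nearest to another cell type than their label. Members were chosen under that limit, so leaving out other libraries can also take some past it. Leaving out 3 other libraries was not tried. Without replicate 2 or replicate 4 of every sorted type, 121 and 122 members were chosen again.

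The summed level of the members gives each library in a single value. In B cells it had a median of 1862 CPM (lowest 1646, highest 2138), in NK cells 1772 (1612 to 2128), in CD4 T cells 1767 (1526 to 2158) and among CD8 T cells 1714 (1339 to 2107). The 4 ranges overlapped throughout. In monocytes it was 454 (399 to 511) and in neutrophils 406 (332 to 457), so that no myeloid library came near a lymphocyte library. The highest library of NK cells, CD4 T cells and CD8 T cells was replicate 5 in each case, and without it the highest values were 1917, 1909 and 1860 CPM. Replicate 5 was the highest of the 6 libraries for 47 members in NK cells, 66 in CD4 T and 39 in CD8 T cells, and for 24 in B cells.

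**Figure D2:**
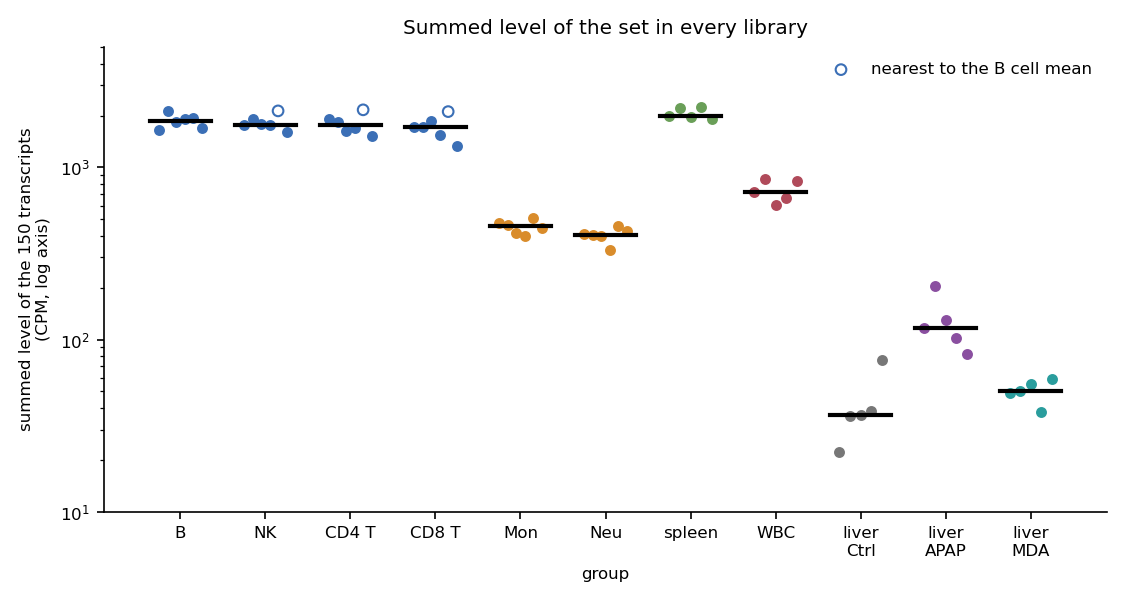
Summed level of the 150 members (CPM, log axis) in each of the 61 libraries, by group, with a black line at the group median; open circles mark the NK, CD4T and CD8T libraries of replicate 5. Lymphocyte and spleen libraries lie between 1339 and 2253 CPM, myeloid libraries at or under 511, and the livers at or under 203.

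The transcript with the highest r was ENSRNOT00000085460 (r = 9.25). Its level in B cells was 56.5 to 130 CPM with a median of 78.8, in NK cells 31.2 to 186 with a median of 48.9, in CD4 T cells 25.6 to 148 with a median of 49.8 and among CD8 T cells 27.4 to 141 with a median of 51.5. In monocytes it was 2.21 to 9.98 CPM and in neutrophils 0 to 7.67, and no myeloid library reached a lymphocyte library. Its evenness leaned on the libraries named above: the means were 88.2 ± 32.3 CPM (SD, n = 6) in B cells and 63.0 ± 42.5 in CD8 T cells, and without replicate 5 the CD8 T cell mean was 47.3.

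The second was ENSRNOT00000082333 (r = 5.29), among the most abundant of the set. It had a median of 158 CPM in B cells (121 to 199), 122 in NK cells (67.3 to 200), 86.6 in CD4 T cells (59.8 to 204) and 84.2 among CD8 T cells (67.5 to 243), against 19.7 in monocytes (11.6 to 27) and 12.8 in neutrophils (6.30 to 16.1). Its evenness ratio of 1.5 lay at the limit of the rule. Without replicate 5 its means were 111 CPM in NK cells, 89.6 in CD4 T and 80.1 in CD8 T cells, beside 161 in B cells.

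The limit of 150 fell in a continuous range of r. The last member, ENSRNOT00000060988, had an r of 1.81, with a lowest lymphocyte mean of 2.77 CPM, a highest of 3.87 and a higher myeloid mean of 1.09. The first transcript left out, ENSRNOT00000085761, had an r of 1.80, with 3.26, 4.62 and 1.36 CPM. The transcripts on each side of the limit were thus close in level and in r.

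Whole spleen and whole blood libraries were not used by the rule. Their comparison describes how a set chosen on sorted cells behaves in mixed tissue of different make-up. The rule asked for higher levels in lymphocytes of the spleen than in monocytes and neutrophils of the blood. Levels higher in spleen were therefore favoured by the choice, and the direction is not independent of the rule. The members lay near their lymphocyte level in the spleen and well below it in the blood. In the spleen the group mean over the mean of the 4 lymphocyte types had a median of 0.965 (quartiles 0.832 and 1.10). The spleen mean lay above the highest lymphocyte mean for 26 members, within the range of the 4 means for 70 and below it for 54. In WBC the same ratio had a median of 0.333 (quartiles 0.257 and 0.484). The WBC mean lay below the lowest lymphocyte mean for 149 of the 150 members, and it lay between that mean and the higher myeloid mean for 138.

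**Figure D3:**
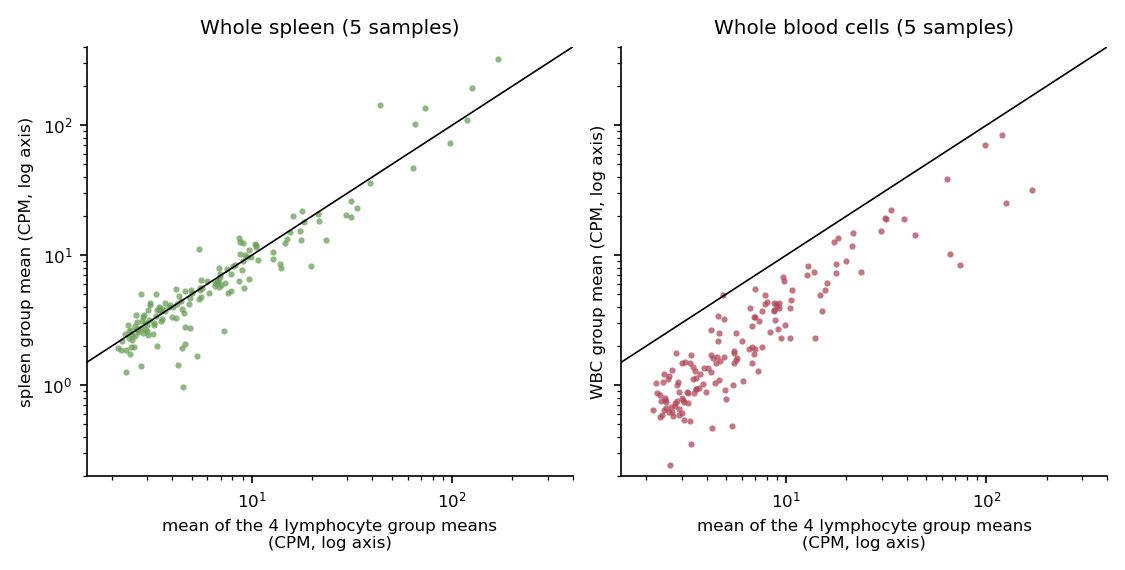
Group mean of each of the 150 members in whole spleen (left) and whole blood cells (right) against the mean of its 4 lymphocyte group means (CPM, log axes; the line marks equal levels). Spleen points scatter about the line with a median ratio of 0.965, and blood points lie below it with a median ratio of 0.333.

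The summed level was 1979, 2205, 1961, 2253 and 1911 CPM in the 5 spleens and 716, 851, 605, 667 and 828 CPM in the 5 WBC libraries. The lowest spleen thus exceeded the highest WBC library. In bulk samples of this kind, fewer cells of a type and less RNA per cell cannot be told apart.

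Of the 150 members, 149 passed the minimum mean of 1 CPM over these 10 libraries, and 107 were higher in spleen and 0 lower (edgeR's quasi-likelihood test, Benjamini-Hochberg adjusted p under 0.05). Of all 13885 transcripts tested, 22.7% were called higher and 23.9% lower. The median log2 fold change was 1.42 over the members and 0.02 over all transcripts. For 113 members all 5 spleens lay above all 5 WBC libraries, against 27.3% of all transcripts tested (10.2% with all spleens below, and 0 members), and 103 of these were also called. The other 42 members tested did not pass, with the lowest log2 fold change of any member at −2.03. The minimum was taken over both groups, and the lower quartile of the members' WBC means was 0.918 CPM. Tested members under 1 CPM in WBC passed only through the spleen, and their calls were not counted apart. Without the minimum, 102 of 150 were called higher and 0 lower. DESeq2 called 109 higher and 0 lower. By edgeR 116 of the 149 members had an unadjusted p under 0.05 in either direction, as had 7397 of all 13885 transcripts. With the replicate number as a block edgeR called 102 higher and 1 lower. The shares of all transcripts called without the minimum, by DESeq2 and with the block are not given.

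Transcripts that met part of the rule are given beside the members. The 405 transcripts that passed the limits on liver, lymphocyte level and r but not on evenness had 270 called higher in spleen and 2 lower, with a median log2 fold change of 1.18. The 434 that were even over the lymphocytes but not raised over the myeloid cells (r at most 1.5) had 431 tested, with 45 called higher and 105 lower and a median of −0.05. The share called higher was 71.8% in the members, 66.7% in the uneven class and 10.4% in the even class that was not raised. The differences between these shares were not tested.

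ENSRNOT00000085460 had the highest log2 fold change of the called members. Its level was 82.6, 55.7, 90.8, 230 and 218 CPM in the spleens and 7.00, 6.64, 3.78, 2.57 and 21.7 CPM in the WBC libraries. All spleens lay above all blood libraries, and replicates 4 and 5 were the highest spleens. The log2 fold change was 3.86 (edgeR adjusted p = 0.000644). ENSRNOT00000006373 followed, with 3.25, 2.98, 4.49, 3.54 and 3.15 CPM in the spleens. In WBC it was at 0 in 3 libraries and at 0.172 and 1.04 CPM in the others. The spleens were close together and most blood libraries were at or near 0, with 4 of 5 at or under 3 estimated counts. The log2 fold change was 3.61 (edgeR adjusted p = 0.00563), and the size of so low a denominator's fold is uncertain. With a WBC mean of 0.242 CPM this transcript passed the minimum only through the spleen, which limits the test as well. At the other end of the called members, the smallest log2 fold changes were 0.22 and 0.30, in transcripts with spleen means of 110 ± 6.54 and 26.2 ± 2.55 CPM (SD, n = 5) and WBC means of 84.0 ± 5.64 and 18.9 ± 1.17. Of the 22 members with a mean of at least 10 CPM over spleen and WBC, 15 were called higher, with a median log2 fold change of 0.57.

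**Figure D4:**
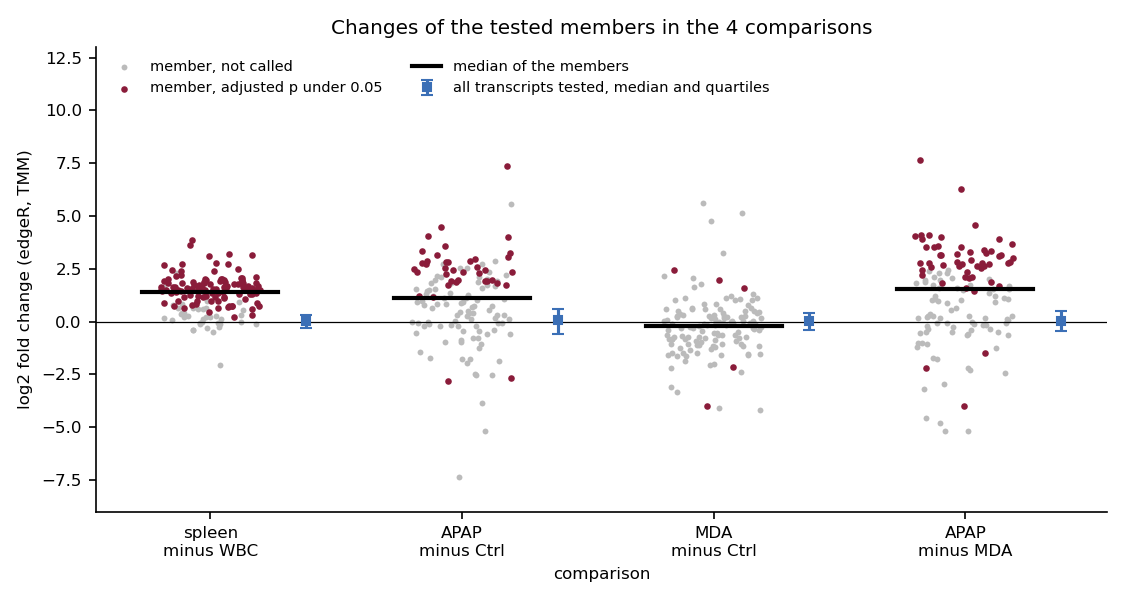
Log2 fold changes (edgeR, TMM scaling) of the tested members in the 4 comparisons, with 1 point per transcript (dark red: adjusted p under 0.05), a black line at the members' median, and a blue square with bars for the median and quartiles of all transcripts tested. The members' medians are 1.42 for spleen minus WBC, 1.12 for APAP minus Ctrl, −0.20 for MDA minus Ctrl and 1.56 for APAP minus MDA.

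In the livers the members were at low levels, as the rule demanded a liver mean under 1 CPM. That limit was set on the mean of all 15 livers and did not use the contrast between treatments. The median group mean was 0.219 CPM in Ctrl, 0.741 in APAP and 0.220 in MDA livers, which is a median of 3.60%, 12.9% and 3.82% of the lymphocyte level of the same member. A group mean of at least 1 CPM was reached by 2 members in Ctrl, 56 in APAP and 8 in MDA livers. The number of members above 0 was 101 to 124 in the Ctrl livers, 116 to 125 in the APAP livers and 107 to 118 in the MDA livers. Of the 150, 52 were above 0 in all 15 livers and 2 were at 0 in all of them. The highest of the 3 group means was in APAP for 101 members, in MDA for 29 and in Ctrl for 18.

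Summed over the members, the level was 22.1, 35.8, 36.3, 38.3 and 76.3 CPM in the Ctrl livers, 116, 203, 129, 102 and 82.8 CPM in the APAP livers and 49.2, 50.1, 55.1, 37.7 and 59.1 CPM in the MDA livers. In CPM all APAP livers lay above all others, with APAP replicate 2 the highest and Ctrl replicate 5 well above the other Ctrl livers. The scaling matters here, because the top 10 transcripts by level took 24.9 to 29.6% of the total in Ctrl libraries, 15.0 to 18.5% in APAP libraries and a median of 22.4% of the MDA libraries. With TMM scaling, which offsets such shifts, the sums were 36.7 to 82.4 in Ctrl, 70.1 to 162 in APAP and 38.5 to 56.9 in MDA livers, so that the ranges of APAP and Ctrl overlapped and those of APAP and MDA did not. The share of the most abundant transcripts moved with the treatment, and its part in the liver results was not tested beyond these scalings.

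After APAP, 131 members passed the minimum mean of 0.1 CPM over the 15 livers and 19 did not. Compared with Ctrl, 37 were higher and 2 lower (edgeR adjusted p under 0.05), where 16.1% of all 18427 transcripts tested were called higher and 15.4% lower. The median log2 fold change was 1.12 over the members and 0.06 over all transcripts. Fitted folds of members at 0 in a group depend on edgeR's prior count, and on log2(CPM + 1) by limma the median was 0.47 over the members and 0.44 over all transcripts. All 5 APAP livers lay above all 5 Ctrl livers in CPM for 42 of the 131 members, a share near the 31.8% of all transcripts tested, and below them for 1 (3.7%). Without the minimum, 148 members had a value, of which 34 were called higher and 1 lower. The minimum was taken over all 15 livers, and 14 of the 131 members had a mean under it over the Ctrl and MDA livers and so passed only through the APAP livers, where 5 of them were called higher. Of the other 117, 32 were called higher. Without TMM scaling the counts were 58 and 1, and the median was 1.73 while that of all transcripts moved to 0.73. The share of all transcripts called in that setting is not given. The count of members called higher was 22 without APAP replicate 2 and 46 without Ctrl replicate 5, and 38 with 2 lower when the members were chosen without the 3 libraries nearest to B cells.

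The classes beside the set were tested in the same fit. Of the 236 uneven transcripts tested, 4 were called higher after APAP and 27 lower, and the median log2 fold change was −0.90. Of the 406 even transcripts not raised over myeloid cells, 22 were called higher and 14 lower, with a median of 0.22. The differences between the classes were not tested. The 37 members called higher had a median lymphocyte level of 4.23 CPM and a median group mean of 0.146 CPM in Ctrl, 1.69 in APAP and 0.188 in MDA livers. The 94 other members tested had a median lymphocyte level of 4.87 CPM and group means of 0.290, 0.627 and 0.381 CPM. The highest lymphocyte mean was in NK cells for 24 of the 37 and for 46 of the 94.

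The called members were at low levels in the Ctrl livers, and 10 of the 37 had all 5 Ctrl livers at or under 3 estimated counts. ENSRNOT00000081424 was at 0 in all 5 Ctrl livers and at 3.01, 5.10, 0.560, 1.0 and 0.412 CPM in the APAP livers. Every APAP liver thus held it, with replicates 1 and 2 the highest. It was called higher after APAP (edgeR adjusted p = 0.00382, and 0.00384 without the minimum), with no fold given against a group listed at 0. In the MDA livers it had a mean of 0.0992 ± 0.136 CPM (SD, n = 5), so that it passed the minimum only through the APAP livers. ENSRNOT00000035512 was at 0.0341, 0, 0.0732, 0.041 and 0.121 CPM in the Ctrl livers and at 1.49, 2.24, 1.48, 1.35 and 0.797 CPM in the APAP livers. The APAP livers were all above the Ctrl livers, each of which was at or under 3 estimated counts. The log2 fold change was 4.50 (edgeR adjusted p = 0.000857), and its size is uncertain at so low a denominator.

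The 2 members called lower after APAP were ENSRNOT00000081335 and ENSRNOT00000074974. The first was at 0.357, 1.33, 1.40, 0.522 and 0.923 CPM in the Ctrl livers and at 0.355, 0.098, 0.211, 0.0881 and 0.295 CPM in the APAP livers. The groups did not overlap, though Ctrl replicate 1 and APAP replicate 1 all but met, and the log2 fold change was −2.83 (edgeR adjusted p = 0.000940). The second was at 0 in 3 APAP livers, and its log2 fold change of −2.68 (edgeR adjusted p = 0.0418) came with overlapping groups in CPM.

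After MDA few members were called. The members' median group mean was 0.219 CPM in Ctrl and 0.220 in MDA livers, and at such levels few calls do not show a lack of change. Compared with the same 5 Ctrl livers, 3 members were higher and 2 lower by edgeR, where 7.99% of all transcripts tested were called higher and 8.07% lower. An unadjusted p under 0.05 by edgeR was found for 18 of the 131 members and for 5272 of all 18427 transcripts. DESeq2 called 3 higher and 4 lower. The median log2 fold change of the members was −0.20, and 0.24 without TMM scaling, where all transcripts had a median of 0.54. Without Ctrl replicate 5 the median was 0.15, with 5 called higher and 0 lower. For 3 members all MDA livers lay above all Ctrl livers, against 22.2% of all transcripts tested, and for 0 below them (2.41%).

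Of the 3 called higher, 2 had groups that did not overlap. ENSRNOT00000081471 was at 0.0849, 0.111, 0.182, 0 and 0 CPM in the Ctrl livers and at 0.482, 0.559, 0.864, 0.422 and 0.536 CPM in the MDA livers. The MDA livers were close together and all Ctrl livers were at or under 3 estimated counts. The log2 fold change was 2.42 (edgeR adjusted p = 0.0179; 0.0681 when only the MDA and Ctrl livers entered the fit). ENSRNOT00000026583 was at 0.402, 0.0749, 0.0614, 0.207 and 0.341 CPM in the Ctrl livers and at 0.792, 1.06, 1.27, 1.0 and 2.21 CPM in the MDA livers. Its log2 fold change was 1.97 (edgeR adjusted p = 0.0200), and without MDA replicate 5, its highest library, it was 1.65 (edgeR adjusted p = 0.0619). After APAP their log2 fold changes were 4.02 and 1.88 against the same controls (edgeR adjusted p = 0.000239 and 0.0143), so these are not independent comparisons.

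The direct comparison of the toxicants needs no controls. In APAP livers 50 members were higher and 3 lower than in MDA livers (edgeR adjusted p under 0.05), where 12.1% of all transcripts tested were called higher and 12.2% lower. The median log2 fold change was 1.56 over the members and 0.01 over all transcripts. For 54 members all APAP livers lay above all MDA livers in CPM, against 12.6% of all transcripts tested, and 46 of these were also called. They lay below for 2 members (7.05%). Of the 14 members that passed the minimum only through the APAP livers 8 were called higher, and of the other 117 tested 42 were. The same 5 APAP livers enter this comparison and that with Ctrl. Without the minimum the counts were 47 and 2 of 148, with a median of 1.20. Without TMM scaling they were 50 and 2, and with members chosen without the 3 libraries nearest to B cells 49 and 2. In the uneven class 2 were called higher and 8 lower, and in the even class that was not raised 6 and 4.

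ENSRNOT00000017466 was at 0 in all 5 MDA livers and at 2.80, 6.18, 3.28, 0.681 and 0.0946 CPM in the APAP livers. The APAP livers spread over a wide range, and replicate 5 was at or under 3 estimated counts. It was called higher in APAP livers (edgeR adjusted p = 0.00527, and 0.00535 without the minimum), with no fold given against a group listed at 0. ENSRNOT00000065677 was at 0 in 4 MDA livers and 0.0692 CPM in the other, and at 0.419, 1.33, 0.767, 0.433 and 0.613 CPM in the APAP livers. Its log2 fold change was 4.59 (edgeR adjusted p = 0.0124, and 0.0152 without the minimum), with a size that is uncertain at so low a denominator. Over the Ctrl and MDA livers both transcripts had a mean under 0.1 CPM, so they passed the minimum only through the APAP livers.

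Of the 3 members called lower, ENSRNOT00000074974 was at 0, 0.0746, 0, 0.0742 and 0 CPM in the APAP livers and at 1.61, 0.575, 0.251, 0.871 and 0.121 CPM in the MDA livers. The groups did not overlap, and the log2 fold change was −4.01 (edgeR adjusted p = 0.00622). ENSRNOT00000081335, described above, was at 0.688, 0.598, 1.68, 0.683 and 0.672 CPM in the MDA livers. It was lower in APAP than in MDA livers by a log2 fold change of −2.21 (edgeR adjusted p = 0.00674), and its MDA and Ctrl livers gave a log2 fold change of −0.62 (edgeR adjusted p = 0.455). These transcripts went against the direction of most called members. Their spleen means were 22.0 ± 4.28 and 4.31 ± 0.753 CPM (SD, n = 5), where the members had a median of 5.06 (quartiles 2.94 and 9.37). The first thus lay above the upper quartile and the second within the quartiles.

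**Figure D5:**
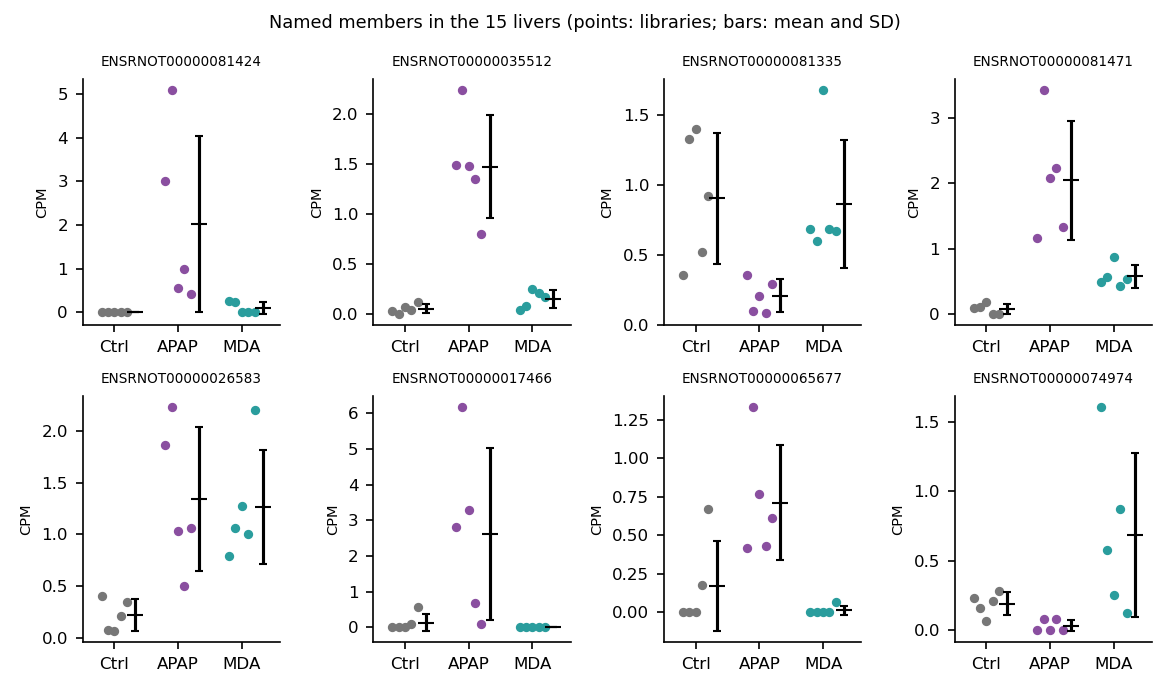
Levels (CPM, linear axes) of 8 named members in the 15 livers, with 1 point per library and a bar for the mean and SD of each group of 5. In 5 panels, ENSRNOT00000081424, ENSRNOT00000035512, ENSRNOT00000081471, ENSRNOT00000017466 and ENSRNOT00000065677, all APAP points lie above all MDA points, and in ENSRNOT00000081335 and ENSRNOT00000074974 they lie below.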

How the data were processed

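The authors trimmed the reads, quantified them with Salmon 1.6.0 on the Ensembl cDNA of Rnor_6.0 and imported them with tximport in R 4.1.3, per the methods and the submitters' processing notes. The methods name TPM, but the deposited values add up to library-sized totals and were used as estimated counts, not pooled over replicates. All 61 columns were matched to samples by name.

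CPM was the value over the library total. The set and the lists were chosen with earlier results of these data known. Tests used edgeR 4.0.16 in R 4.3.3 (quasi-likelihood, TMM, values rounded to whole numbers) with Benjamini-Hochberg adjustment over all transcripts tested and a threshold of 0.05. The 10 spleen and WBC libraries (mean of at least 1 CPM) and the 15 livers (at least 0.1 CPM) had a fit each. The fits were tested on simulated data with known changes. Rounding set 5.91% of the members' values above 0 to 0 in Ctrl, 1.66% in APAP and 2.48% in MDA livers. Depth limits single members in the livers. Since the values are not whole reads, no counting interval or detection floor is given.

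Named transcripts were the 2 of highest r and those on each side of the limit of 150. In each comparison they had the 2 highest and the 2 lowest fold changes among called members without overlap of the groups, of which at most 2 identifiers that rose and 2 that fell are printed. ENSRNOT00000074974 was also named after APAP, after its values were seen. Alternatives were DESeq2 1.42.0, limma 3.58.1 on log2(CPM + 1) and log2(CPM + 0.1), other filters and scalings, other forms of the rule, and each replicate left out. Alternatives chosen after seeing the data were the rule without the 3 libraries nearest to B cells, edgeR without rounding, and members chosen with TMM scaling in the livers. Over deviations from group means, same-numbered libraries had correlations of −0.007 to 0.028 between spleen and WBC and of −0.289 to 0.166 between liver groups. Between sorted types the medians reached 0.310 for CD4T and CD8T (highest 0.583), where 5 of 6 CD4T libraries were nearest to their own number, as were 5 of 6 NK libraries against CD8T (median 0.276) and 5 of 6 monocyte libraries against neutrophils (0.0865). No pair of groups had every correlation above 0.1, so the numbers were not taken to pair libraries, and no test was run between sorted types.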

Additional observations from a re-analysis of the deposited data

Results flagged for a closer look

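A library far from the others of its group was flagged in 7 of 57 checks, made on the summed level of each group and on named transcripts. All flags fell on named transcripts. The limit used flags about 1 in 20 groups of normally spread values. Groups with most libraries at 0 depart from that, so the count is not set against chance. ENSRNOT00000085460 was highest in WBC replicate 5 at 21.7 CPM, and ENSRNOT00000006373 was highest in the same library at 1.04 CPM. ENSRNOT00000082333 was highest in CD8T replicate 5 at 243 CPM, and ENSRNOT00000060988, the last member inside the limit, in the same library at 5.91 CPM. This library is among the 3 nearest to the B cell mean. In the livers, ENSRNOT00000081335 was highest in MDA replicate 3 at 1.68 CPM among the MDA livers, and ENSRNOT00000065677 in MDA replicate 5 at 0.0692 CPM. A further member called higher after APAP was highest in APAP replicate 2 at 2.33 CPM, against 1.49 to 1.58 CPM in the other APAP livers, and its log2 fold change of 1.14 fell short of the threshold without that library (1.0, edgeR adjusted p = 0.0673). The toxicants differed when compared with each other, with 50 of 131 tested members higher and 3 lower in APAP than in MDA livers. Of all transcripts tested, 12.1% were called higher and 12.2% lower. Of the 50 members, 8 passed the minimum only through the APAP livers.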

How the results depend on the processing

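Liver values are few counts per member, and folds there are uncertain. Counts of called members in other settings are given without the share of all transcripts called, and are not read against the main fit. Of the 150 members, 85 were chosen again with TMM scaling (103 transcripts before the limit), 82 at an evenness limit of 1.3 (116) and 67 at a limit of 2 (399). With each replicate left out, 121 to 148 were chosen again, from 180 to 224 transcripts.

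For spleen against WBC, the median log2 fold change was 1.07 with limma on log2(CPM + 1), where it was 1.42 with edgeR. The limma median over all transcripts was 0.16. At a minimum of 10 CPM the edgeR median was 0.57, with 15 members called higher. The members chosen with TMM scaling gave 68 higher and a median of 1.09. The replicate block gave 1 member called lower and otherwise changed the call of 1 named transcript, of the smallest fold (adjusted p = 0.0977). Leaving out each replicate gave 99 to 108 higher, 0 to 1 lower and medians of 1.25 to 1.52, and the 2 smallest named folds then lost their call without some libraries.

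For APAP against Ctrl, members called higher and the median were 58 and 1.73 without TMM scaling, 70 and 1.49 with limma on log2(CPM + 0.1), and 71 and 0.47 on log2(CPM + 1). The medians over all transcripts in these settings were 0.73, 0.69 and 0.44. With all transcripts moved up, these counts cannot be set against the share called in the main fit. Called lower were 4 with DESeq2 and 1 with no minimum, without TMM scaling or with only the groups compared. Members chosen with TMM scaling gave 17 higher and 1 lower. The replicate block gave 29 higher and 2 lower. Leaving out each replicate gave 22 to 46 higher, 1 to 3 lower and medians of 0.97 to 1.56.

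For MDA against Ctrl, the median turned positive without TMM scaling (0.24, against 0.54 over all transcripts). With limma it was 0.30 on log2(CPM + 0.1) and 0.057 on log2(CPM + 1), against 0.53 and 0.35 over all transcripts. The members thus stayed below all transcripts in these settings. It was also positive with members chosen with TMM scaling (0.024, against 0.024 over all transcripts) and without Ctrl replicate 5 (0.15 against 0.049). The cause was not tested. Called higher and lower were 6 and 0 with limma on log2(CPM + 0.1), 8 and 0 on log2(CPM + 1), 3 and 4 with DESeq2, 4 and 1 without TMM scaling, 3 and 1 without rounding, 1 and 2 with only the groups compared, 3 and 0 with the replicate block, 1 and 1 with members chosen with TMM scaling, and 4 and 1 with members chosen without the 3 libraries nearest to B cells. Leaving out each replicate gave 2 to 5 higher, 0 to 3 lower and medians of −0.39 to 0.15.

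For APAP against MDA, the median was 1.21 with limma on log2(CPM + 0.1), 0.44 on log2(CPM + 1) and 1.20 with no minimum. DESeq2 called 5 lower. Members chosen with TMM scaling gave 25 higher, 1 lower and a median of 1.24. The replicate block gave 41 higher and 2 lower. Leaving out each replicate gave 34 to 51 higher, 2 to 4 lower and medians of 1.34 to 1.70.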
